A study of Mus musculus with 30 samples.

Results

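The clustered Zfp genes are the mouse zinc finger genes whose RefSeq symbol is Zfp followed by digits and whose annotated start or end lies within 50 kb of another such gene. Of 21887 protein-coding genes in RefSeq GRCm38, 367 carried such a symbol. Of these, 190 were clustered and the other 177, called isolated below, served as the reference. Membership rests on the symbol alone, and protein domains were not checked, so either set may hold genes of other kinds. Genes with a letter after the digits, such as Zfp874a, counted as genes outside the family. The clustered genes fell into 55 chains, of which 23 held 2 genes, 15 held 3, 8 held 4, 5 held 5 and 4 held 6 or more. The last pair of genes inside the 50 kb limit, Zfp934 and Zfp935, lay 49943 bp apart, and the next pair outside it, Zfp92 and Zfp275, lay 51869 bp apart.

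The measurements were chromatin immunoprecipitation followed by sequencing in WT-MA9, a line of mouse acute myeloid leukaemia with stable expression of MLL-AF9 from the vector pMSCV-MLL-AF9-GFP. The cells carried that fusion in all 4 conditions: antibody to Menin in DMSO, the vehicle, or in MI-503, an inhibitor of the Menin-MLL contact, and antibody to UTX in DMSO or in MI-503. Cells were collected on day 4 of treatment, and the sources used here do not give the dose of MI-503. There was 1 library per condition, so no difference between conditions has a replicate check and no p-value was computed.

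Proteins of this family often bind DNA through tandem zinc fingers. Many also carry a KRAB domain that recruits KAP1 (Trim28) and, with it, the histone methyltransferase Setdb1 and HP1 proteins. Many silence retrotransposons, and some act at imprinted or sex-biased genes. The genes multiplied by local duplication, which left them in tandem arrays of related copies. Menin, encoded by Men1, tethers the histone methyltransferases MLL1 and MLL2 to chromatin, whereas UTX, encoded by Kdm6a, is a histone demethylase found in MLL3 and MLL4 complexes.

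The promoters below show what the members of this family look like in sequence. Each is the 300 bp from 250 bp before to 50 bp after a listed transcription start, from RefSeq GRCm38.p6, printed from 5′ to 3′ on the strand of the gene with every CpG in capitals. Such an entry was listed for 162 of the 190 clustered genes. The first set holds genes with high Menin peaks: Zfp78 at chr7:6363058-6363357 (plus strand), Zfp983 at chr17:21650361-21650660 (plus strand) and Zfp746 at chr6:48086544-48086843 (minus strand). They held 13, 7 and 39 CpG, so high Menin peaks were found at promoters with little and with much CpG. The summit lay inside the printed window at Zfp983 and Zfp746, and 512 bp before the listed start at Zfp78.
Zfp78: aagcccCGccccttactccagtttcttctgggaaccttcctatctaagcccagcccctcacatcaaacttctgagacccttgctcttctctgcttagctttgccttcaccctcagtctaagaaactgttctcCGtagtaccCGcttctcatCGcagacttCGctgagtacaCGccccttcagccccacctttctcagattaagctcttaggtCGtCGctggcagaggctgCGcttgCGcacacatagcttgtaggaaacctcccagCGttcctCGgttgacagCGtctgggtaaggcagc
Zfp983: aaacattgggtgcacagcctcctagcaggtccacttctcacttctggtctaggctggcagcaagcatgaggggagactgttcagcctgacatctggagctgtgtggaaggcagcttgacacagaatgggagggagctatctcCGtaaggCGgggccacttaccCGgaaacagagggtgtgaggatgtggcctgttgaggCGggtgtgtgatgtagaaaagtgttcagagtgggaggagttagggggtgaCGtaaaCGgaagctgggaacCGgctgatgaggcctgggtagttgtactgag
Zfp746: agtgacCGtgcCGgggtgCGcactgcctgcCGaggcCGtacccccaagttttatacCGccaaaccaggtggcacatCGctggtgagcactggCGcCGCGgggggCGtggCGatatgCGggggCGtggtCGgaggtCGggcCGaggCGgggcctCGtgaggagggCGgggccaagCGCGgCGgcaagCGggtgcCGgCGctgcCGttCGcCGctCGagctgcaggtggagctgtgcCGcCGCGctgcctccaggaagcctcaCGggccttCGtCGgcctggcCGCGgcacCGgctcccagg

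Zfp213 at chr17:23564177-23564476 (minus strand), with 24 CpG, had the UTX peak with the highest −log10 q of any clustered gene, and Zfp871 at chr17:32788238-32788537 (minus strand), with 12 CpG, had the highest UTX −log10 q among the genes without a Menin peak.
Zfp213: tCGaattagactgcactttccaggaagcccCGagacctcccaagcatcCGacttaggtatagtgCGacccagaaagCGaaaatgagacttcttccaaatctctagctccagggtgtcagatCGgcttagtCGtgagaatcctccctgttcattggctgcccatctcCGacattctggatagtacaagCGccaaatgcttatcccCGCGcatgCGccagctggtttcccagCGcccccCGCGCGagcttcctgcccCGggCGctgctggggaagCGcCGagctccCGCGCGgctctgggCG
Zfp871: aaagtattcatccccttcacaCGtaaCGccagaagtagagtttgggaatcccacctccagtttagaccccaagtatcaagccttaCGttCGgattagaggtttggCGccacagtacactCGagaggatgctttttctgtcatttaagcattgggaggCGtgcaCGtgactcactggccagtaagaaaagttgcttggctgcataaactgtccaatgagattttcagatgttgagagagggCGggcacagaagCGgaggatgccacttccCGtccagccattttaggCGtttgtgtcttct

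Zfp961 at chr8:71950816-71951115 (plus strand) and Zfp956 at chr6:47953140-47953439 (plus strand) were the only clustered genes with a UTX peak in DMSO. They held 21 and 16 CpG, and each held the pentamer CCAAT or its reverse complement ATTGG at 2 places.
Zfp961: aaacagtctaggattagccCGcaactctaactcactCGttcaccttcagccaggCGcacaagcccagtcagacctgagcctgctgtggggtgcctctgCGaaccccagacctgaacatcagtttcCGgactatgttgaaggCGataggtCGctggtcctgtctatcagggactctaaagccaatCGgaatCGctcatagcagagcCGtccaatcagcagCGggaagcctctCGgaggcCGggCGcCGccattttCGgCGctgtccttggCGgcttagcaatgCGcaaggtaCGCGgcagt
Zfp956: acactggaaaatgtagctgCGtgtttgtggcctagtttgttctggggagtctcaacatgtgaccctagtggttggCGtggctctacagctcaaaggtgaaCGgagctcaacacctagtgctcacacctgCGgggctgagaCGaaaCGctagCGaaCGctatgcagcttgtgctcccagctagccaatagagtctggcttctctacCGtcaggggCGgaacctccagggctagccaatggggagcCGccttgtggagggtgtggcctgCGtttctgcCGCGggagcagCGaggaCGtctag

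Zfp943 at chr17:21962309-21962608 (plus strand) and Zfp758 at chr17:22361213-22361512 (plus strand) are shown as near copies, 94.7% identical over the 300 bp by edit distance. A UTX peak was counted for Zfp943 and none for Zfp758. That peak lay outside the printed window, with its summit 224 bp after the listed start of Zfp943, and it also counted for the neighbouring Zfp942. Zfp600 at chr4:146156577-146156876 (plus strand) stands for the chromosome 4 members, none of which had a peak at its start or end. Its promoter held 5 CpG and was 94.7% identical to that of Zfp979, which had no peak either.
Zfp943: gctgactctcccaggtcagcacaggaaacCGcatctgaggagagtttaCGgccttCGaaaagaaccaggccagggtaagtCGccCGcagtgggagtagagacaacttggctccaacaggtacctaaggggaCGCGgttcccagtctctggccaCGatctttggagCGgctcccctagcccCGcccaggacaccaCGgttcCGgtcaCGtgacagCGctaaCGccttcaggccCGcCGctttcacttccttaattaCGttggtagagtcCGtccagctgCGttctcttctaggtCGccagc
Zfp758: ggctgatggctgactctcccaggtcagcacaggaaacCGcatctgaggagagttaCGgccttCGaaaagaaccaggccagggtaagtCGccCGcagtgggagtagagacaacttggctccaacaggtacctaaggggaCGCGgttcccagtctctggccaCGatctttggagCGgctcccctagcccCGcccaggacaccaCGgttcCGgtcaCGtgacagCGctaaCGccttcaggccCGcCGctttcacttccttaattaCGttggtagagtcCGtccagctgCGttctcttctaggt
Zfp600: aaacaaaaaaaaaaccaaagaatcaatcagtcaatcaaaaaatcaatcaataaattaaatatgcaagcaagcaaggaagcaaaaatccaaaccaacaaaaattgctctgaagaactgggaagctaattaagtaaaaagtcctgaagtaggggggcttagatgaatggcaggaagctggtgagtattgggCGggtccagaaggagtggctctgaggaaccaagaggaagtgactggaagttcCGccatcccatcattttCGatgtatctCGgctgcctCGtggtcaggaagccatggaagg

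A gene was counted as having a peak when a summit of the deposited list lay within 1 kb of its annotated start or end. In the Menin DMSO list, 60 of the 190 clustered genes had a peak, or 31.6% (exact Clopper-Pearson 95% interval 25 to 38.7), beside 31.2% of all protein-coding genes. In the UTX MI-503 list, 72 had a peak, or 37.9% (31 to 45.2), beside 36.5% of all genes. Both shares were thus near that of genes in general. The intervals cover counting error only, and since neighbouring genes can share a peak, the genes are not independent.

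The other pair of lists held almost nothing at these genes. No clustered gene had a peak in the Menin MI-503 list, whose 8 peaks marked 0.00914% of all genes, and 2 (1.05%), Zfp956 and Zfp961, had a peak in the UTX DMSO list, whose 217 peaks marked 0.777% of all genes. The Menin DMSO list held 11195 peaks and the UTX MI-503 list 14231, so the shares followed the lengths of the lists. Read depth is not given for any list, and a gene without a listed peak may still have bound the protein below the threshold of the peak caller.

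Most clustered genes with a Menin peak in DMSO also had a UTX peak in MI-503, and the reverse, as among all genes. A larger part was marked by a single list than among all genes, and this difference was not tested. Both lists had a peak at 48 genes (25.3%, beside 28.4% of all genes), Menin alone at 12 (6.32%, beside 2.85%), UTX alone at 24 (12.6%, beside 8.1%) and neither at 106 (55.8%, beside 60.7%). Read within each list, 12 of the 60 clustered genes with a Menin peak lacked a UTX peak, or 20% (10.8 to 32.3), against 9.13% of all genes with a Menin peak. Likewise 24 of the 72 genes with a UTX peak lacked a Menin peak, or 33.3% (22.7 to 45.4), against 22.2% of all genes with a UTX peak. Among the isolated genes these shares were 12.1% (5.38 to 22.5) and 26.6% (17.3 to 37.7), and the intervals overlapped those of the clustered genes.

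The isolated genes had higher shares in the same lists by a margin that depended on the processing. A Menin DMSO peak lay at 66 of the 177 (37.3%, 30.1 to 44.9) and a UTX MI-503 peak at 79 (44.6%, 37.2 to 52.3), with both at 58 (32.8%). For each list the interval of the clustered genes overlapped that of the isolated genes, and the difference was not tested. Without genes within 1 kb of a gene outside the family, the Menin shares were 30.8% clustered and 31.5% isolated, and with a link of 20 kb the UTX shares were 40.9% and 41.3%. None had a Menin MI-503 peak, and 2, Zfp593 and Zfp687, had a UTX DMSO peak.

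**Figure D1:**
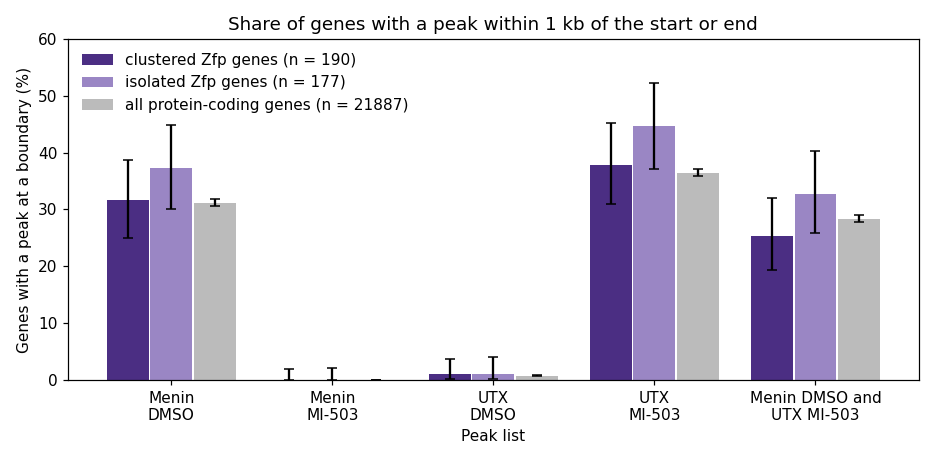
Percent of genes (vertical axis) with a peak summit within 1 kb of the start or end in each list, for clustered Zfp genes, isolated Zfp genes and all protein-coding genes, with exact 95% intervals for counting error. The clustered bars stand at 31.6% in the Menin DMSO and 37.9% in the UTX MI-503 list, near the 31.2% and 36.5% of all genes, and at 0 and 1.05% in the other lists.

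The strength of a peak is given here by the authors' fold over the local input background and by their −log10 q, which rank peaks within a list and cannot be set against each other across lists. The best Menin DMSO peak of a clustered gene had a median fold of 5.42, with a range of 3.28 to 23, where the median was 6.62 at isolated genes and 7.34 at all genes with a peak. The best UTX MI-503 peak had a median of 8.15, with a range of 5.17 to 20.8, where the medians were 9.85 and 10.1. In both lists the clustered genes therefore had the lowest median of the 3 sets. These medians include only genes with a peak and were not tested.

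Zfp78 had the highest Menin peak of the group. Its best Menin DMSO peak, 1155 bp wide, had a fold of 23 and a −log10 q of 118, above 98.8% of the Menin DMSO list. In the UTX MI-503 list the best peak at Zfp78 had a fold of 5.33 and a −log10 q of 5.27, above 20.7% of that list. The gene thus ranked near the top in Menin and low in UTX. Zfp983 had the same order, with a Menin fold of 14.5 (above 90.9% of the list) and a UTX fold of 5.25 (above 19.2%).

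Zfp7 was high in both lists, with a Menin fold of 15.8 (above 95.9%) and a UTX fold of 18.6 (above 91.5%). Zfp868 had folds of 11.1 and 17.0, and Zfp865 had 11.7 in each list. Zfp213 had a Menin fold of 8.68 and the highest UTX fold of the group, 20.8, with a −log10 q of 43.8. Zfp771 and Zfp597 also ranked among the 15 highest clustered genes in both lists, with Menin folds of 8.86 and 8.29 and UTX folds of 15.1 and 14.8. That made 6 genes in both rankings: Zfp7, Zfp213, Zfp597, Zfp771, Zfp865 and Zfp868. The remaining Menin ranks went to Zfp53, Zfp13, Zfp51, Zfp623 and Zfp524, with folds from 7.30 to 8.82, and to Zfp746 and Zfp28, described below.

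Among the genes that ranked high in UTX and not in Menin, Zfp961 had a UTX MI-503 fold of 17.1 and a Menin fold of 5.67. Zfp128 had 15.7 and 5.07, Zfp963 had 14.0 and 3.93, and Zfp329 had 13.6 and 4.94. For Zfp672, Zfp810, Zfp994, Zfp619 and Zfp784 the UTX folds ran from 11.7 to 13.0 and the Menin folds from 4.25 to 6.88. The Menin peaks of these 9 genes stood above 37.8% to 65.8% of that list.

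The 2 genes with a UTX peak in vehicle had a peak in 3 of the 4 lists. At Zfp961 the UTX DMSO peak had a fold of 7.37 (−log10 q 6.96) and a summit 69 bp before the listed start. At Zfp956 that peak had a fold of 8.83 and a −log10 q of 8.55, with its summit 26 bp before the listed start. Zfp956 had a UTX MI-503 fold of 9.85 and a Menin DMSO fold of 4.92. Neither gene had a peak in the Menin MI-503 list.

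Menin alone marked 12 clustered genes, led by Zfp746 and Zfp28. Zfp746 encodes PARIS, a substrate of the ubiquitin ligase parkin, and its Menin peak had a fold of 12.2 and a −log10 q of 37.9, above 85.1% of the list. Zfp28 had a fold of 10.8 and a −log10 q of 37.3. Its peak, 72 bp before the listed start of Zfp28, also lay within 1 kb of the end of the neighbouring Zfp78, so it counted for that gene as well. The other 10 genes, among them Zfp180, Zfp457, Zfp54, Zfp27, Zfp953 and Zfp677, had Menin folds from 3.77 to 5.81.

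UTX alone marked 24 clustered genes, with UTX MI-503 folds from 5.17 to 10.4. The highest by −log10 q were Zfp871 (fold 10.2), Zfp668 and Zfp646 (10.4 each, from a single shared peak), Zfp266 (9.54), Zfp282 (9.74), Zfp748 (8.49), Zfp747 (8.21) and Zfp568 (7.34). Zfp282 encodes the mouse counterpart of a repressor first found at the promoter of a human leukaemia virus, and Zfp568 represses a placental transcript of the growth factor gene Igf2. None of the 24 was among the 15 highest UTX genes of the group.

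**Figure D2:**
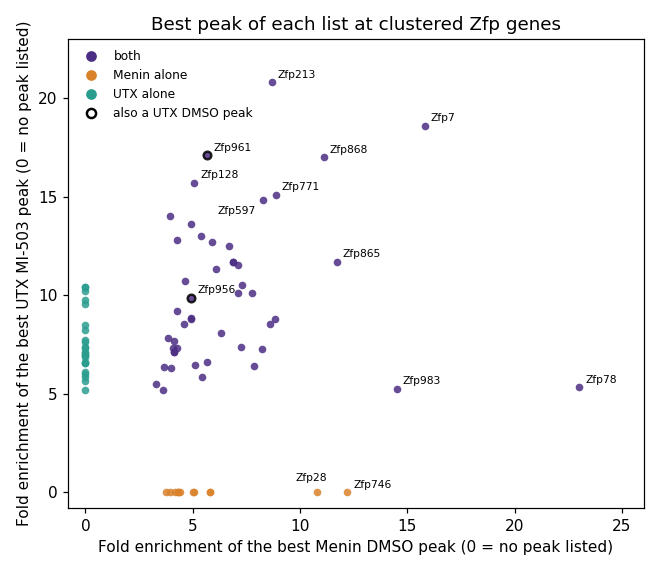
Fold enrichment of the best Menin DMSO peak (horizontal axis) and of the best UTX MI-503 peak (vertical axis) at each clustered gene with a peak in either list, with 0 drawn where no peak was listed. Zfp78 and Zfp983 lie far right with UTX folds of 5.33 and 5.25, Zfp7 and Zfp868 are high on both axes, and ringed points mark the 2 genes that also had a UTX DMSO peak.

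Genes of known function were found with and without peaks. Zfp809, which silences Moloney murine leukaemia virus by binding its primer binding site, had a Menin fold of 3.66 and a UTX MI-503 fold of 6.33. Zfp110, a partner of the neurotrophin receptor p75, had a UTX fold of 7.30 and no Menin peak. Zfp617 had folds of 7.09 and 10.1. Zfp27 had Menin alone (5.01) and Zfp82 UTX alone (6.62). No peak was listed at Zfp14, Zfp30, Zfp97, Zfp273, Zfp316, Zfp429, Zfp459, Zfp600 or Zfp708. Zfp445, which helps maintain imprints and was picked out after its values were seen, had no peak either.

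A set of clustered genes carries Rsl among its RefSeq synonyms, for regulator of sex-limited protein, after repressors of male-biased liver genes. Of these 14 genes, all on chromosome 13, 1 (Zfp457) had a Menin DMSO peak and 1 (Zfp748) a UTX MI-503 peak, or 7.14% in each list (0.181 to 33.9). All genes had 31.2% and 36.5%. The listed promoters of the set held 5 to 15 CpG. All genes with 5 to 9 CpG had 11.4% and 15.7%, and those with 10 to 14 had 29.9% and 36.4%. The set was chosen after its values were seen. Among the isolated genes, the imprinting factor Zfp57 and the pluripotency marker Zfp42 had no peak, and Zfp143, an activator that binds many promoters, had folds of 8.95 and 17.1. The highest isolated folds were above those of any clustered gene, with Menin folds of 25.2 at Zfp654 and 24.0 at Zfp706 and a UTX fold of 36.7 at Zfp706.

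Many clusters held genes with and without a peak. Of the 55 clusters, 16 (43 genes) had no gene with a peak in either list, 4 (8 genes, each cluster a pair) had both lists at every gene, and 30 held both genes with a peak in either list and genes with none. The cluster spans ran from 19.9 to 542 kb, with a median of 89.6 kb. Of 135 pairs of adjacent genes, a Menin DMSO peak lay at both genes of 17, at 1 gene of 49 and at neither of 69. A UTX MI-503 peak lay at both genes of 30, at 1 of 39 and at neither of 66. A single peak served both genes in 3 and 4 of these pairs. No pairs of unlinked genes were counted. Whether neighbours agreed more or less often than their single shares imply was therefore not tested.

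The largest cluster, on chromosome 7, held 15 genes over 401 kb from Zfp84 to Zfp146. Zfp566 had a Menin fold of 7.27 and a UTX fold of 7.38, and Zfp382 had 6.07 and 11.3. Zfp27 had Menin alone, Zfp568, Zfp82 and Zfp260 had UTX alone, and the other 9 genes, which included Zfp30, Zfp420, Zfp74 and Zfp14, had neither. The marked genes sat mostly toward the far end of the array, between unmarked ones.

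The next clusters in size had more Menin than UTX. In the 11 genes on chromosome 13 (Zfp455 to Zfp748), Zfp87 had both (3.84 and 7.83), Zfp457 and Zfp953 had Menin alone, and Zfp748 had UTX alone. In the 10 genes on chromosome 7 (Zfp180 to Zfp94), Zfp94 had both (4.90 and 8.76) and Zfp180 and Zfp109 had Menin alone. In the 6 genes on chromosome 17, Zfp51 (8.60 and 8.54) and Zfp53 (7.84 and 6.41) had both, Zfp677 (4.30) and Zfp54 (5.80) had Menin alone, and Zfp52 and Zfp948 had neither. Over the 4 clusters of 6 or more genes, Menin was at 13 of 42 genes (31%) and UTX at 10 (23.8%). All genes had 31.2% and 36.5%, so the Menin share was near that of genes in general and the UTX share was lower. Both lists were at 6 of the 42 genes and Menin alone at 7, beside 28.4% and 2.85% of all genes. Menin and UTX were at 12 and 16 of 25 genes in clusters of 5 (48% and 64%). Clusters of 4 had 8 and 12 of 32 (25% and 37.5%). Clusters of 3 had 10 and 14 of 45 (22.2% and 31.1%), and clusters of 2 had 17 and 20 of 46 (37% and 43.5%). The size classes were compared by these counts alone.

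The 5 clusters of 5 genes ranged from a single marked gene to all 5. On chromosome 8, Zfp868, Zfp869, Zfp963 and Zfp866 had both lists and Zfp964 had neither. On chromosome 7, Zfp524, Zfp865, Zfp784 and Zfp580 had both, of which Zfp784 and Zfp580 shared a peak, and Zfp579 had neither. On chromosome 6, a UTX MI-503 peak lay at all 5 genes, and Zfp786, Zfp398 and Zfp956 also had Menin while Zfp282 and Zfp212 did not. The head-to-head neighbours Zfp786 and Zfp398 were counted from the same peaks, 1 in Menin and 2 in UTX. Inside Zfp786, a separate Menin peak and a separate UTX peak lay 93 and 13 bp from its listed start. A second chromosome 7 cluster had UTX alone at Zfp768 (7.63), Zfp747 (8.21) and Zfp689 (7.11), and on chromosome 13 the sole marked gene was Zfp738, with a Menin fold of 4.33. In a chromosome 17 cluster of 4 genes, the head-to-head neighbours Zfp942 and Zfp943 shared a UTX peak with a fold of 6.94.

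By chromosome, the 14 clustered genes on chromosome 4, in 5 clusters, had no peak at a start or end in any list. The 2 on chromosome X had none either, and of the 6 on chromosome 2, Zfp345 alone had a peak, in UTX MI-503 (6.57). All genes had 31.2% in Menin DMSO, 36.5% in UTX MI-503 and 28.4% in both. On chromosome 4, Zfp992 and Zfp978 held Menin DMSO and UTX MI-503 peaks inside the gene. Many listed promoters there were near copies of another Zfp promoter. Identity was 94.7% at Zfp979, 89.3% at Zfp534 and Zfp988, 89% at Zfp982, 84.3% at Zfp985 and 79% at Zfp981. Zfp993 had 50%. Their CpG numbers ran from 3 (Zfp534) to 16 (Zfp982). Chromosome 8 had both lists at 6 of 9 genes, chromosome 15 at 3 of 5, and chromosome 16 at its 2 genes, Zfp174 and Zfp597. Chromosome 7, with 65 clustered genes, had Menin at 21 and UTX at 28, and chromosome 17, with 31, had 9 and 10.

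**Figure D3:**
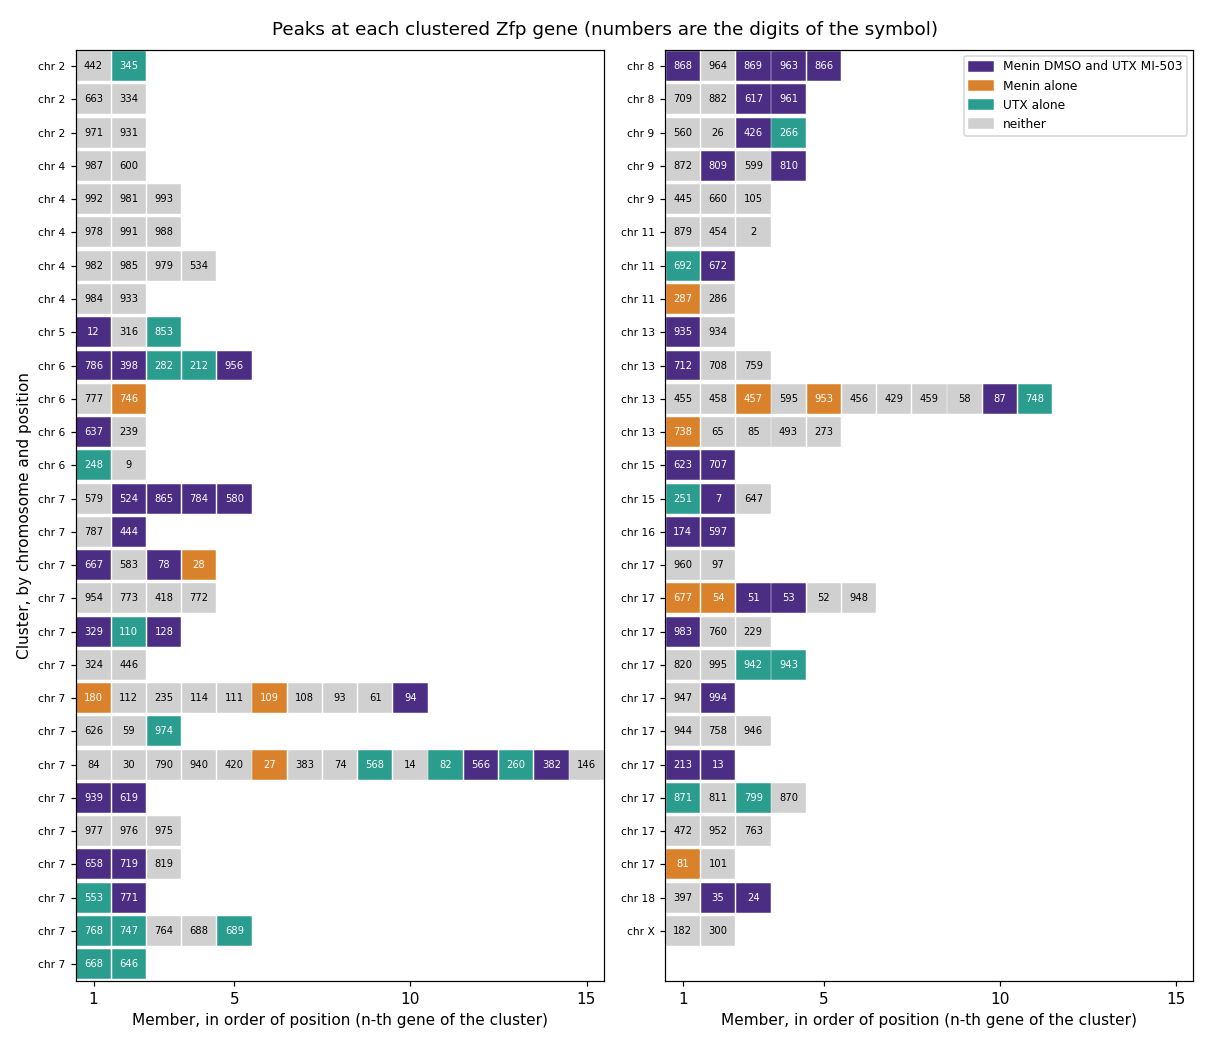
Each row is a cluster, ordered by chromosome, and each box a gene in order of position, labelled with the digits of its symbol and coloured by whether a Menin DMSO peak, a UTX MI-503 peak, both or neither lay within 1 kb of its start or end. The 5 rows of chromosome 4 are grey throughout, and 30 of the 55 rows hold both coloured and grey boxes.

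Peaks at the clustered genes lay mostly at transcription starts. Of the 51 genes with a Menin DMSO peak and a listed strand, the best peak was at the start for 49 and at the end for 2, Zfp109 and Zfp771. For UTX MI-503 it was at the start for 58 of 59. The Menin summit lay within 250 bp of a listed start at 44 of 51 genes (86.3%, against 81.3% at all genes), with a median position of −39 bp, that is upstream. The UTX summit lay within 250 bp at 43 of 59 (72.9%, against 77.4%), with a median of 9 bp downstream. At all genes the medians were −62 and −45 bp. Counted at listed starts alone, Menin lay at 50 of the 162 clustered genes with such a start (30.9%, beside 33.5% of all genes) and UTX at 59 (36.4%, beside 39.1%).

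At the 48 clustered genes with both lists, the best Menin and best UTX peaks overlapped at 47. The median distance between their summits was 46 bp, against 44 bp at isolated genes and 36 bp at all genes. The exception was Zfp444, and at Zfp771 both peaks lay at the end of the gene and not at its start. Some genes had several peaks of a list: 5 in Menin (Zfp78, Zfp180, Zfp524, Zfp865 and Zfp869) and 12 in UTX, among them Zfp524, Zfp672 and Zfp768. Nearly all peaks were the family's own, since 4 of 63 distinct Menin peaks and 5 of 80 distinct UTX peaks also lay within 1 kb of a protein-coding gene outside the family.

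**Figure D4:**
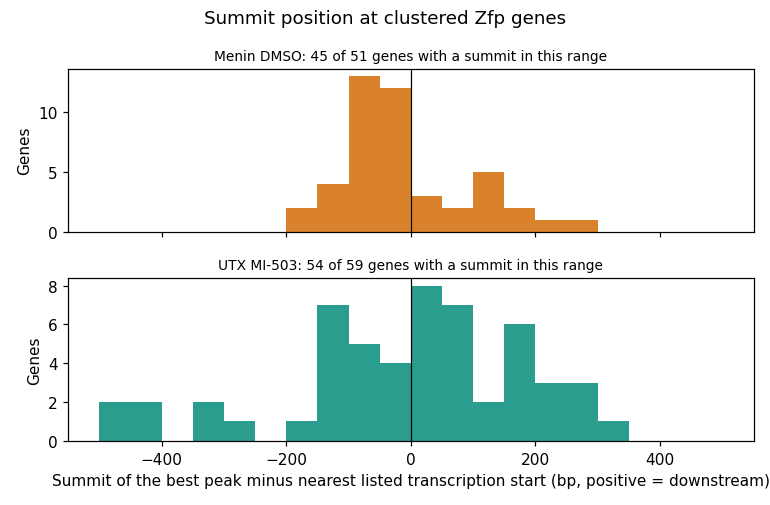
Number of clustered genes (vertical axis) by the distance in bp from the nearest listed transcription start to the summit of the best peak, positive downstream, for Menin DMSO (top) and UTX MI-503 (bottom), with genes beyond the plotted range left out. Menin summits gather just upstream of the start, with a median of −39 bp over 51 genes, and UTX summits lie on both sides, with a median of 9 bp over 59 genes.

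Some peaks lay inside a clustered gene and away from its annotated ends. A Menin DMSO summit over 1 kb from both ends lay inside 13 clustered genes (6.84%, beside 10.7% of all genes) and a UTX MI-503 summit inside 17 (8.95%, beside 12.9%), and 10 and 12 of these had no peak of that list at an end. Several of these peaks sat at a listed transcription start that lies inside the annotated gene. At Zfp688 the Menin peak (9.02) and the UTX peak (13.7) lay 28 and 14 bp from its only listed start, and 1179 and 1221 bp from the annotated start of the gene, so this gene fell just outside the 1 kb window and counted as having neither. At Zfp787 the folds were 7.84 and 17.5, with both summits within 250 bp of its only listed start. Zfp446, which has no listed start, held Menin peaks with folds of 3.98 and 3.5 and a UTX peak with a fold of 15.9. At the other side of the limit, Zfp637 was counted with a Menin summit 822 bp and a UTX summit 857 bp from its annotated start. These summits lay 135 and 170 bp after its listed transcription start.

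The 55 cluster spans covered 6.35 Mb and held 76 Menin DMSO, 90 UTX MI-503 and 2 UTX DMSO summits and no Menin MI-503 summit. Of the Menin and UTX MI-503 summits, 19 and 16 lay over 1 kb from the start or end of any protein-coding gene. No density of summits outside the spans is given here. The spans also overlapped 19 other protein-coding genes, 5 of which had a peak, in both lists (26.3%, 9.15 to 51.2). All genes had 31.2% in Menin DMSO, 36.5% in UTX MI-503 and 28.4% in both. Among these 5 were the ribosomal protein gene Rpl8 (8.22 and 13.3) and Fiz1 (8.25 and 7.27). The peaks at Fiz1 were the same ones that counted for Zfp524.

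Members with a peak had more CpG in their promoters. The median was 17 CpG per 300 bp at the 39 clustered genes with both lists and a listed promoter, 16.5 at the 20 with UTX alone, 12 at the 12 with Menin alone and 10 at the 91 with neither. Over all 162 clustered genes the median was 12, against 17 at the 143 isolated genes and 15 at 17492 genes in all. In the clustered genes with 0 to 4 CpG, Menin was at 0 of 13 and UTX at 1 (Zfp345). With 20 or more CpG, Menin was at 18 of 37 (48.6%, 31.9 to 65.6) and UTX at 24 (64.9%, 47.5 to 79.8), beside 55.9% and 63.3% of all genes with as many CpG. Between these ends the shares were not always ordered: UTX was at 20%, 23.3% and 62.5% of clustered genes with 5 to 9, 10 to 14 and 15 to 19 CpG, at 31%, 18.8% and 58.6% of isolated genes and at 15.7%, 36.4% and 56.4% of all genes. Menin was at 20%, 27.9% and 50% of clustered genes in the same classes and at 11.4%, 29.9% and 48% of all genes.

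Promoters rich in CpG were not all counted as marked. Of the 37 clustered genes with 20 or more CpG, 11 had neither list: Zfp316, Zfp383, Zfp560, Zfp688, Zfp709, Zfp758, Zfp777, Zfp787, Zfp819, Zfp944 and Zfp964. At Zfp688 and Zfp787, as described above, both lists had a peak within 250 bp of the listed start, outside the window by which genes were counted, so these promoters were marked. At Zfp777 a UTX peak lay inside the gene, 23313 bp from the listed start. Zfp777 had 51 CpG, the most of any clustered promoter, and Zfp457, with a Menin fold of 5.05, had 7. The pentamer CCAAT, searched with its reverse complement ATTGG on both strands, was in a listed promoter of 86 of 162 clustered genes (53.1%), of 23 of the 39 with both lists (59%) and of 50 of the 91 with neither (54.9%), against 42.3% of all genes. It was in 50% of those with Menin alone and 35% of those with UTX alone. The isolated genes had the same 53.1%, with 44% of those with both lists and 55.2% of those with neither. A match is a description of the letters and not of a bound site.

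Few of the promoters most like that of another Zfp gene had a peak. Of the 24 clustered genes whose promoter was at least 70% identical to another, 1 had a Menin peak (4.17%, 0.105 to 21.1) and 3 a UTX peak (12.5%, 2.66 to 32.4). Of the 121 genes under 60% identity, Menin was at 44 (36.4%, 27.8 to 45.6) and UTX at 50 (41.3%, 32.4 to 50.6). The more alike promoters also had less CpG, with a median of 7.5 against 13. Among genes with 10 or more CpG, Menin was at 0 of 8 alike promoters and UTX at 2, against 41 and 45 of 90 in the least alike class. Those 2 genes, Zfp942 and Zfp943, shared a single UTX peak and were among the 3 counted above. Among genes with under 10 CpG the classes were close, with Menin at 1 of 16 against 3 of 31 and UTX at 1 of 16 against 5 of 31. The 17 genes of 60% to under 70% identity had 35.3% in each list, and those of them with under 10 CpG had Menin at 5 and UTX at 4 of 11, so the shares did not fall evenly with identity. These classes were set after the values were seen, the sources used here name no aligner and no treatment of reads that match several places, and the part of read placement in these counts was not tested.

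**Figure D5:**
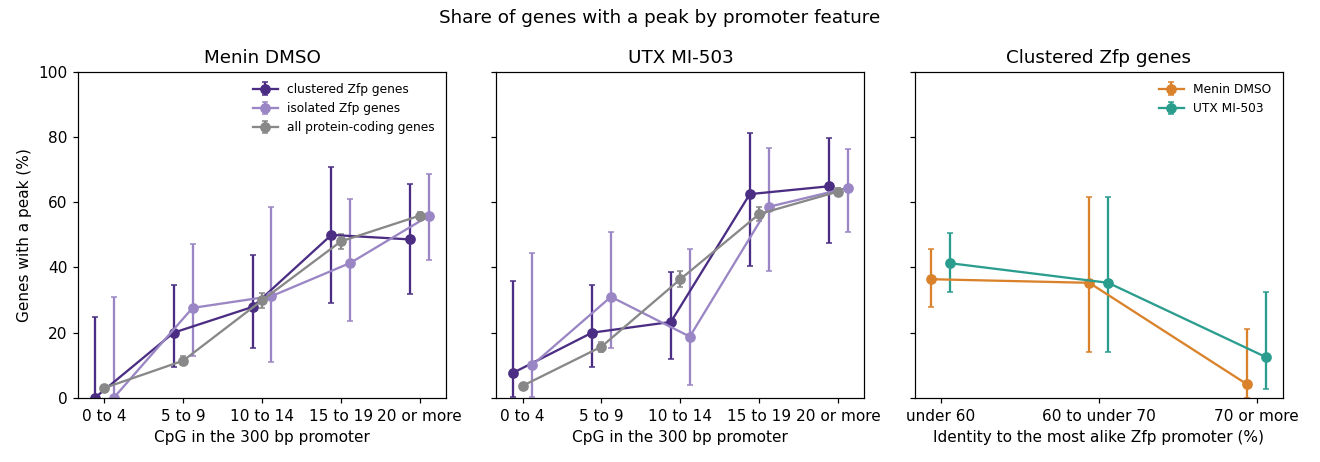
Percent of genes with a Menin DMSO peak (left) or a UTX MI-503 peak (middle) by the number of CpG in the 300 bp promoter, and percent of clustered genes with either peak by identity to the most alike Zfp promoter (right), with exact 95% intervals. Shares are higher with 20 or more CpG than with 0 to 4 in all 3 gene sets, with a dip in isolated genes at 10 to 14 CpG for UTX (18.8%), and clustered genes with 70% identity or more have 4.17% for Menin and 12.5% for UTX.

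The genes of the silencing machinery that KRAB zinc finger proteins recruit were looked at in the same lists. Of 26 such genes, 15 had a Menin DMSO peak (57.7%, 36.9 to 76.6), 18 a UTX MI-503 peak (69.2%, 48.2 to 85.7) and 14 both (53.8%), and none had a peak in the other lists. All genes had 31.2%, 36.5% and 28.4%. Of the 24 genes of this set with a listed promoter, 22 had 20 or more CpG, and all genes with as many CpG had 55.9%, 63.3% and 52.4%, near the shares of the set. Trim28, which encodes KAP1 itself, had folds of 7.63 and 13.0. The HP1 genes Cbx1, Cbx3 and Cbx5 had Menin folds of 3.74, 19.1 and 6.88 and UTX folds of 5.73, 31.0 and 12.8. Setdb1 had UTX alone (6.42), and Mphosph8, of the HUSH silencing complex, had 11.8 and 30.7. Dnmt1, Dnmt3a, Chd3, Chd4, Tasor, Atrx and Ehmt2 had neither. The zinc finger genes named Zkscan, Zscan or Zik, whose proteins often carry a SCAN domain, had Menin at 12 of 28 and UTX at 12 of 28, with both at 11. Their highest Menin fold was 11, at Zscan10, where the summit lay 410 bp from the end of the gene and not at its start.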

How the data were processed

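Peak lists of 4 libraries were used, and the other 26 of the 30 labelled libraries were not analysed here. The authors called peaks with MACS2 on the mm10 build, per the submitters' processing notes. The sources used here give no version, aligner, filter on reads or threshold on q. Each list came from a single library against a vehicle input, per the names of the deposited peaks. The deposited fold values are a ratio to the local background. The deposited −log10 values are of the p-value and q-value, and the deposited score was the whole part of 10 times −log10 q in all 25651 peaks. Read depth is unknown, and so is the depth-dependent limit of detection.

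Genes came from RefSeq GRCm38.p6 (21887 protein-coding genes), and promoters and strands from its promoter table (17492 genes). Genes were joined into a cluster when the gap between them was at most 50 kb. A gene had a peak when a summit lay within 1 kb of its start or end. Shares carry exact Clopper-Pearson 95% intervals (SciPy 1.17.1), and promoter identity was taken with edlib. The counting was tested on simulated peaks. The planned description of protein domains was not run.

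Named genes were the 15 highest clustered genes by −log10 q in Menin DMSO and in UTX MI-503, those in the other lists, the 8 highest with either list alone, members of the 10 largest clusters, a list of genes of known function, the 6 highest isolated genes per list, genes with several peaks of a list, and members of the gene lists. Some of these are given only in counts and ranges, and genes with Gm or Rik symbols are counted and not named. The members and lists were chosen with earlier results of these data known.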

Additional observations from a re-analysis of the deposited data

How the results depend on the processing

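Each share was recomputed with a window of 500 bp or 3 kb, a −log10 q of at least 5, any peak base in place of the summit, listed starts only, links of 20 or 100 kb, and without genes near other genes or the largest cluster. After the data were seen, it was also recomputed for genes with promoters under 70% identical and with each peak given to the nearest gene only. The share of clustered genes ranged from 27.9% to 36.2% for Menin DMSO, 34.7% to 41.1% for UTX MI-503, 22.1% to 28.3% for both and 0.671% to 1.45% for UTX DMSO, and was 0 for Menin MI-503, always inside the interval of the reported value. The share of isolated genes with a Menin DMSO peak moved from 37.3% to 45.5% with listed starts only. That setting also dropped the genes without a listed start. Among the 143 isolated genes that were kept, the unchanged rule of start or end gave 40.6%. The cause of the move was not tested. The clustered share was below the isolated share in all 11 alternatives, with clustered minus isolated from -14.6 to -0.774 percentage points for Menin and from -15.3 to -0.345 for UTX. The gap was narrowest for Menin without genes within 1 kb of a gene outside the family, and for UTX with a link of 20 kb, and widest for both with listed starts only. No paired analysis was possible because each condition had 1 library. With unknown depth, a missing peak is no measure of absence.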
